A study of Homo sapiens with 2 samples.

Results

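The miRNAs described here are the human entries of the array whose number lies between miR-1178 and miR-1324, leaving out 24 numbers of that range (miR-1185, miR-1193, miR-1197, miR-1225 to miR-1238, miR-1246, miR-1248, miR-1260, miR-1283, miR-1290, miR-1291 and miR-1323). The rule uses the names only and no measured value, and it gives 113 of the 2549 human miRNAs on the array. The study overexpressed HOTTIP, a long noncoding RNA of the HOXA locus, and profiled the miRNAs of exosomes, the small vesicles that cells release, from FaDu cells, an established line of human hypopharyngeal squamous cell carcinoma. One array was labelled oe-NC, for exosomes of FaDu cells transfected with NC plasmid lentivirus, and the other was labelled oe-HOTTIP, for exosomes of FaDu cells that received the HOTTIP overexpression plasmid lentivirus. By the labels all RNA came from exosomes of this 1 cell line, and 200 ng was labelled with Cy3 for each array.

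With 1 array per group there is no replicate of the condition, so no p-value is given, and every error below is technical. A miRNA had about 20 spots, divided among its probes, which are mostly 2. Its intensity is the mean of its probe means, and its SD is that of the spots around the mean of their own probe, pooled over the probes. The SD therefore leaves out any gap between probes, which for some members was far wider and is given with them. The groups are named from the titles and treatments of the arrays. The free-text description of each array names the opposite group, and a miRNA array holds no probe for HOTTIP that could settle it. Each direction below is therefore that of the array labelled oe-HOTTIP against the array labelled oe-NC, and would be the opposite if the descriptions, not the titles, hold. The normalized table that the authors deposited, read by its column names, gives the opposite sign for every detected member with a value there other than miR-1287-5p.

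A miRNA is a short RNA cut from a hairpin precursor by DROSHA, with its partner DGCR8, and then by DICER. It guides an Argonaute protein to messenger RNAs that pair with its seed, bases 2 to 8. Numbers were given in the order in which miRNAs were registered, so neighbours in number are not a family. The numbers described here hold several unusual origins, among them miR-1204 to miR-1208 in the noncoding gene PVT1, miR-1273 entries that lie in Alu repeats, miR-1224, a mirtron made by splicing in place of DROSHA, and miR-1306, which lies in the gene of DGCR8 itself.

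The sequences below are those on which the results turn. They come from RefSeq (GRCh38.p14), which gave 91 of the 113 members, and 12 of the 16 that were detected. Each is written 5′ to 3′ with the seed in capitals. The first is the member with the largest measured difference, and the next 2 are those with the largest bounds.
miR-1249-3p: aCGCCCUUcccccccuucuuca
miR-1306-3p: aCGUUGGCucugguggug
miR-1180-3p: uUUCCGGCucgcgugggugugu
The next 4 hold a run of G and were detected on both arrays.
miR-1268a: cGGGCGUGgugguggggg
miR-1268b: cGGGCGUGguggugggggug
miR-1275: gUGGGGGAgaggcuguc
miR-1202: gUGCCAGCugcagugggggag
Of the last 2, the first has the lowest G and C content among the 12 detected members with a sequence. The second is the only member detected on the oe-NC array alone.
miR-1287-5p: uGCUGGAUcagugguucgaguc
miR-1281: uCGCCUCCuccucuccc

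The mature miR-1249-3p lies at chr22:45200958-45200979 on the minus strand, within the span of KIAA0930. The mature miR-1306-3p lies at chr22:20086112-20086129 on the plus strand, within DGCR8. The mature miR-1180-3p lies at chr17:19344513-19344534 on the minus strand, within the span of B9D1. The mature miR-1287-5p lies at chr10:98395271-98395292 on the minus strand, within the span of PYROXD2. The gene table used gives no strand for these spans, so whether a miRNA runs the same way as the gene was not compared. Of the lettered pair, miR-1268a (chr15:22225308-22225325, minus strand) lies in no listed gene span and miR-1268b (chr17:80098831-80098850, plus strand) lies in that of CCDC40. The 18 bases of miR-1268a stand whole inside miR-1268b, so signal on the probes of one may come from the other.

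Both arrays stood on the same slide and were scanned together. An outlier flag marked 3.20% of miRNA spots on the oe-NC array and 3.16% on the other, and none was saturated. The negative control spots averaged 3.87 ± 2.37 (SD, 976 spots) and 3.45 ± 2.21 (SD, 975 spots) intensity units. The oe-HOTTIP array was brighter by 0.67 on the log2 scale in the median of all miRNAs detected on both arrays, and by 0.64 in the labelling spike-ins. Scaling to the 90th percentile of each array took out a shift of 0.65, and the log2 differences below are what remained after it. Of 5 markers of squamous epithelium, 4 were detected on each array, with summed intensities of 514 and 618. Of 5 markers of blood cells, 4 were detected on each array, summing to 2277 and 2609, nearly all of it miR-451a, a red cell miRNA. The part of blood RNA in the results below was not tested.

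Most of the members were not detected. On the oe-NC array 10 of the 113 (8.85%) were detected, against 12.9% of all miRNAs. On the oe-HOTTIP array 15 (13.3%) were detected, against 15.3% of all. Detected were 9 on both arrays, miR-1281 on the oe-NC array only and 6 on the oe-HOTTIP array only, which left 97 detected on neither. Over all miRNAs 261 were detected on both arrays, 67 on the oe-NC array only and 129 on the oe-HOTTIP array only. In all 16 of 113 (14.2%) were detected on at least 1 array, against 18.1% of the other miRNAs on the array. The entries numbered 549 to 999, registered just before, were detected in 28 of 235 cases (11.9%), and those numbered 1400 to 3299, registered after, in 23 of 186 (12.4%). No number was left out of either of these sets, while 24 were left out of the range described here. The 3 shares are therefore not of like sets.

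The 97 members detected on neither array did not stand above the negative controls. Their intensities on the oe-NC array ran from -3.61 to 3.49 (miR-1267), with a median of -0.97. On the oe-HOTTIP array they ran from -3.68 to 4.03 (miR-1299), with a median of -0.93. None rose above the mean plus 2 SD of the negative controls, 8.62 on the oe-NC array and 7.87 on the oe-HOTTIP array, so no level can be given for them.

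Of the 16 members detected on at least 1 array, 8 were at least 2-fold higher on the oe-HOTTIP array and 3 at least 2-fold lower. The 2-fold threshold is that of the study's methods, which name a corrected p-value beside it that is not used here. Among all 457 miRNAs detected on at least 1 array, 33.9% were at least 2-fold higher and 25.2% at least 2-fold lower. Under normexp background correction with an offset of 50, which adds that offset to every signal, none of the 8 was at least 2-fold higher. Of the 8 higher members 6 were detected on the oe-HOTTIP array alone, so that each rests on a bound and not on 2 measured levels. Of the 155 higher miRNAs of the whole array 47 were detected on both arrays, and the others rest on a bound too. Among the 9 members detected on both arrays, 2 were higher (miR-1268a and miR-1275), 2 lower (miR-1249-3p and miR-1304-3p) and 5 differed by less than 2-fold. Past 2-fold were thus 44.4% of them, against 39.1% of the 261 miRNAs detected on both arrays. Their median absolute log2 difference was 0.73, against 0.70 for the 261. Their median signed log2 difference was -0.23, against 0.02, but under 4 of the alternative settings, among them quantile normalization, it stood above 0.

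**Figure D1:**
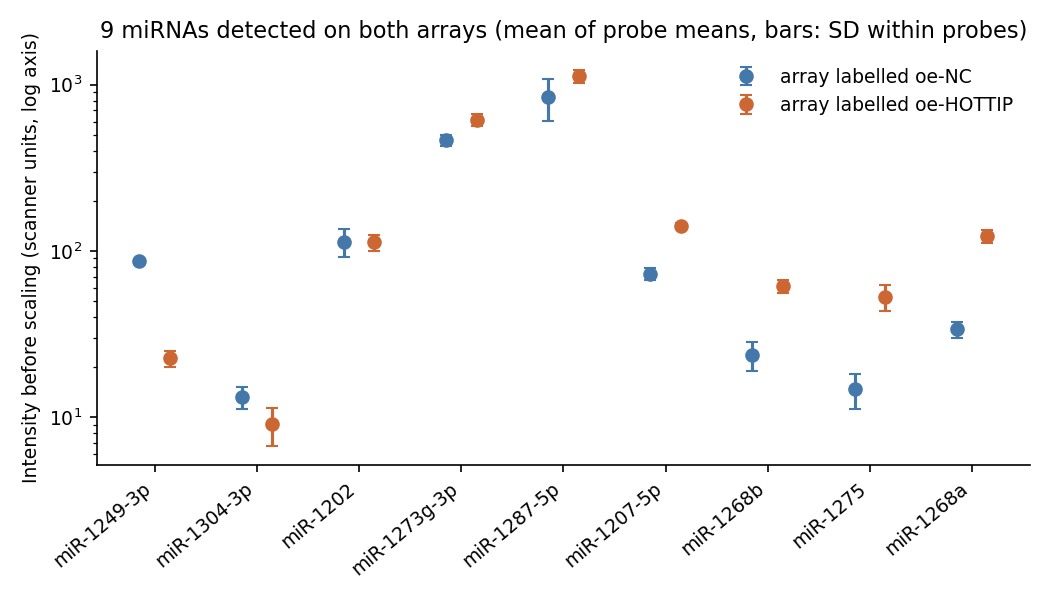
Intensity of the 9 members detected on both arrays on a log axis, as the mean of the probe means with the SD within probes, for the array labelled oe-NC and the array labelled oe-HOTTIP. For miR-1249-3p the oe-HOTTIP point sits at 22.6, far below the oe-NC point at 86.3.

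The largest difference among the 9 was that of miR-1249-3p. Its 18 spots on the oe-NC array ran from 76.1 to 94.1, with a median of 86.7. Its 18 spots on the oe-HOTTIP array ran from 18.7 to 26.4, with a median of 23.5. The spots of the arrays did not overlap, before or after scaling. The mean intensity was 86.3 ± 3.30 (SD, 18 spots) on the oe-NC array and 22.6 ± 2.52 (SD, 18 spots) on the oe-HOTTIP array. The log2 difference was -2.59, with a technical SE of 0.04 and a spread of 0.17 within probes. Its probes gave -2.64 and -2.53, and it was at least 2-fold lower under each of 15 other processing settings, from -2.76 to -1.41. These settings leave out the authors' normalized table read by its column names, since its columns follow the opposite arrays. They include that table with its columns exchanged. A stricter floor for bounds and a filter on dim miRNAs are also among them, and neither could change this value.

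The other member that fell was miR-1304-3p, a dim one. Its 20 spots ran from 9.30 to 16.3 on the oe-NC array, with a median of 12.97, and from 4.06 to 13.4 on the oe-HOTTIP array, with a median of 9.15. Before scaling the spots overlapped, and after scaling those of neither probe did. The mean intensity was 13.2 ± 2.03 (SD, 20 spots) on the oe-NC array and 9.04 ± 2.34 (SD, 20 spots) on the oe-HOTTIP array. The log2 difference was -1.19, with a spread of 0.43 within probes. Only 2 of the 20 oe-HOTTIP spots were well above background, against 18 of the oe-NC spots, so the difference lies near the background of the assay. It was at least 2-fold lower in 11 of the 15 other settings and -0.54 without scaling.

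The members of the lettered pair moved the same way. miR-1268a went from a mean intensity of 33.6 ± 3.57 (SD, 18 spots) on the oe-NC array to 122 ± 10.5 (SD, 20 spots) on the oe-HOTTIP array, which is 1.21 on the log2 scale against a spread of 0.20. Its probes stood at 11.2 and 56.0 on the oe-NC array and at 50.3 and 194 on the oe-HOTTIP array, and gave 1.51 and 1.14. miR-1268b went from 23.6 ± 4.75 (SD, 19 spots) to 61.4 ± 5.64 (SD, 20 spots), which is 0.73 on the log2 scale against a spread of 0.32 and under 2-fold. Since miR-1268a is contained in miR-1268b, these cannot be taken as separate observations. Whether the probes of one bound the other was not tested. Across the 15 other settings miR-1268a ranged from 0.41 to 1.86 and miR-1268b from -0.01 to 1.38.

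The rise of miR-1275 rested on unequal probes. The mean intensity was 14.7 ± 3.55 (SD, 19 spots) on the oe-NC array and 52.7 ± 9.41 (SD, 19 spots) on the oe-HOTTIP array, and the log2 difference was 1.19 with a spread of 0.43. One probe stood at background on the oe-NC array, going from -0.04 to 9.68, and the other went from 29.4 to 95.6, a log2 difference of 1.05. The spots of only 1 of the 2 probes did not overlap after scaling. Of the 15 other settings 12 kept it at least 2-fold higher, and the range was 0.03 to 1.84.

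None of the 4 remaining members with signal on both arrays reached 2-fold. miR-1207-5p, from the PVT1 locus, went from 72.7 ± 5.84 (SD, 20 spots) to 142 ± 5.40 (SD, 18 spots). Its log2 difference of 0.31 was larger than its spread of 0.13, but ranged from 0.05 to 0.97 across the 15 other settings. miR-1202 stood at 113.3 ± 21.8 (SD, 20 spots) and 112.4 ± 12.0 (SD, 19 spots), nearly equal before scaling and -0.66 on the log2 scale after it. The spots of neither of its probes were separated. miR-1273g-3p, a miR-1273 entry, went from 465 ± 35.7 (SD, 18 spots) to 614 ± 48.1 (SD, 20 spots), a log2 difference of -0.25. Its probes stood far apart, at 110.3 and 820 on the oe-NC array and at 108.4 and 1120 on the oe-HOTTIP array, and gave log2 differences of -0.67 and -0.20. miR-1287-5p went from 845 ± 243 (SD, 20 spots) to 1129 ± 105 (SD, 20 spots), a log2 difference of -0.23 that is smaller than its spread of 0.44. The sign of miR-1273g-3p was kept in 12 of 15 other settings and that of miR-1287-5p in 11, so no direction is given for either.

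**Figure D2:**
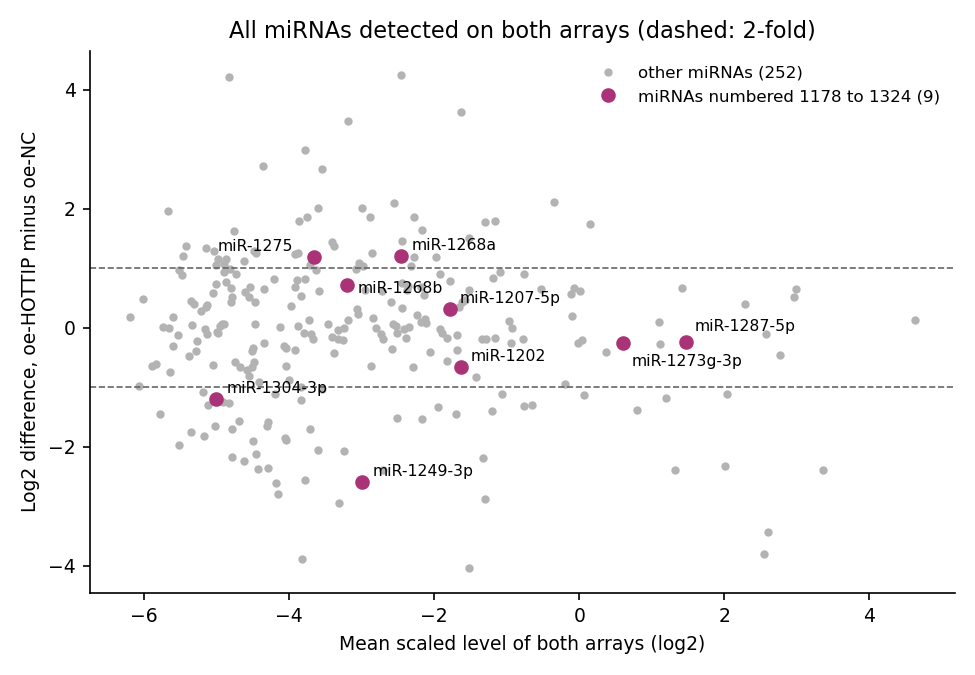
Scaled log2 difference (oe-HOTTIP minus oe-NC) against mean level for the miRNAs detected on both arrays, with the 9 members marked and the 2-fold lines drawn. Of the members, miR-1249-3p lies lowest at -2.59 and miR-1268a highest at 1.21.

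The oe-HOTTIP array alone detected 6 members. Their fold is given as a bound, the oe-HOTTIP signal over the higher of the lowest detected signal on the oe-NC array (0.976) and the member's own signal there, after scaling. A stricter bound used 5.32 in place of the lowest signal, the level above which at least 50% of miRNAs of like intensity were detected. Both floors lay below the mean plus 2 SD of the oe-NC negative controls (8.62), and the first below their mean (3.87). Neither bound is therefore a secure lower limit of the fold. For miR-1306-3p the 19 spots of the oe-NC array ran from -3.26 to 1.88, with a median of -0.35, and the 18 spots of the oe-HOTTIP array from 21.3 to 30.7, with a median of 25.0. The mean intensities were -0.40 ± 1.30 (SD, 19 spots) and 25.2 ± 1.98 (SD, 18 spots). The bound was 16.5-fold higher, or 3.02-fold by the stricter one. For miR-1180-3p the 20 spots of the oe-NC array ran from -5.49 to 1.35, with a median of -1.84, and the 19 spots of the oe-HOTTIP array from 18.0 to 28.4, with a median of 23.0. The mean intensities were -1.51 ± 1.55 (SD, 20 spots) and 22.9 ± 2.09 (SD, 19 spots), with a bound of 14.96-fold, or 2.75-fold by the stricter one. Both stayed at least 2-fold higher in each of the 14 other settings that gave a bound. The lowest bounds, under normexp without an offset, were 2.65-fold for miR-1306-3p and 2.38-fold for miR-1180-3p.

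For miR-1273f, another miR-1273 entry, the oe-NC spots ran from -2.18 to 5.63 and the oe-HOTTIP spots from 10.6 to 30.9, with a median of 17.5. The mean intensities were 1.16 ± 1.70 (SD, 20 spots) and 17.5 ± 3.37 (SD, 20 spots), with a bound of 9.57-fold, or 2.10-fold by the stricter one. For miR-1224-5p, the mirtron, the mean intensities were 5.25 ± 2.28 (SD, 20 spots) and 17.4 ± 2.60 (SD, 18 spots). The bound was 2.11-fold, or 2.08-fold by the stricter one. It was still at least 2-fold higher in 8 of the 14 other settings with a bound. The remaining 2 of the 6 lay close to background on the oe-HOTTIP array too.

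For miR-1307-5p the mean intensities were -1.65 ± 1.83 (SD, 19 spots) and 8.28 ± 2.90 (SD, 20 spots), and 3 of the 20 oe-HOTTIP spots were well above background. The bound was 5.41-fold, and by the stricter one there was none. For miR-1182 they were -0.89 ± 2.12 (SD, 20 spots) and 4.72 ± 2.31 (SD, 20 spots), with a bound of 3.08-fold and none by the stricter one. The probes of miR-1182 disagreed, one going from -0.73 to 10.6 and the other from -1.04 to -1.21. On the oe-NC array alone stood miR-1281, at 8.73 ± 2.26 (SD, 20 spots) against 5.76 ± 1.14 (SD, 16 spots). Its bound was 2.38-fold lower on the oe-HOTTIP array, or 2.13-fold by the stricter one, with 4 of its 20 oe-NC spots well above background. The stricter floor for miR-1281 was that of the oe-HOTTIP array, 6.44. It was at least 2-fold lower in 10 of the 14 other settings with a bound, and 1.51-fold lower without scaling.

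**Figure D3:**
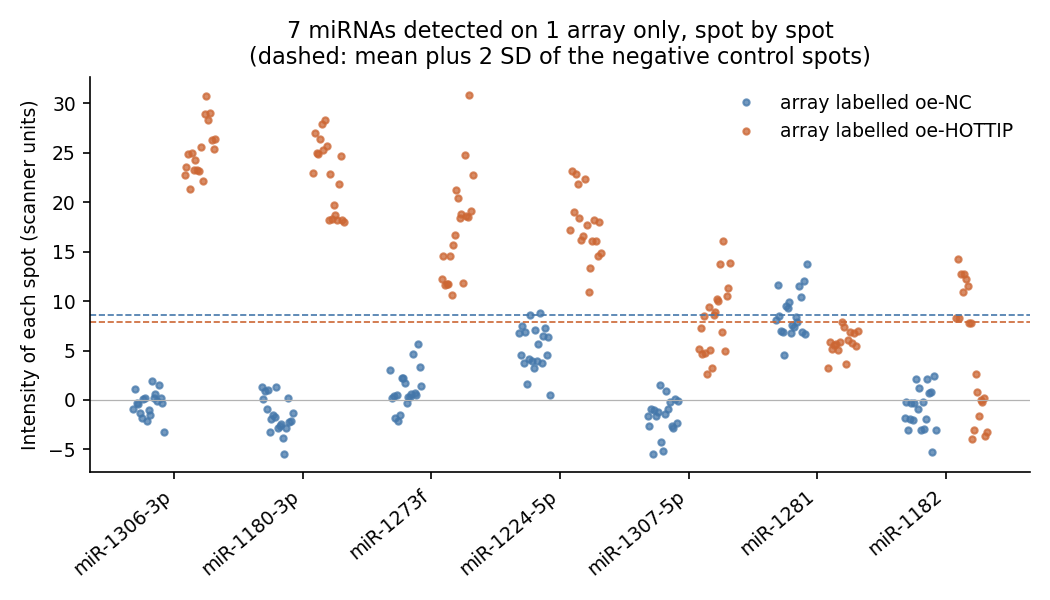
Intensity of every spot of the members detected on 1 array only, for each array. The oe-NC spots of miR-1306-3p reach 1.88 at most and its oe-HOTTIP spots begin at 21.3, while the spots of miR-1182 overlap.

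Arms and families showed the same pattern of mostly undetected entries. Of 26 hairpins with both arms on the array, none had both arms detected, 9 had 1 arm detected and 17 had none. The detected arm was the 5p arm in 4 hairpins and the 3p arm in 5. Of the 771 hairpins of the other miRNAs 31 had both arms detected, 208 had 1 and 532 had none. The other arm of a detected hairpin stayed near background, as with miR-1287-3p at -2.26 on the oe-NC array and miR-1249-5p at 1.86 and 3.50 on the arrays.

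Of the 6 PVT1 entries, miR-1207-5p alone was detected. The values of the others on the oe-NC and oe-HOTTIP arrays were all below 2. Of the 9 miR-1273 entries, miR-1273g-3p was detected on both arrays and miR-1273f on the oe-HOTTIP array. The remaining 7 lay between -2.99 (miR-1273h-3p) and 0.01 (miR-1273a) on the oe-NC array. The 3 entries that lie in an intron of HTR2C, a serotonin receptor gene, were not detected, nor were any entries of the miR-1245, miR-1255, miR-1269 and miR-1295 families.

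Among the members 4 share a seed with a miRNA of lower number, and none of the 4 was detected. miR-1271-5p stood at -2.34 and -2.52, while miR-96-5p, with the same seed, stood at 4.67 and 6.21 and was detected on the oe-HOTTIP array. miR-1297 stood at -1.64 and -0.63, while miR-26a-5p (7.89 and 8.97) and miR-26b-5p (9.21 and 15.2) were detected on both arrays. In the other 2 cases, miR-1270 with miR-620 and miR-1271-3p with miR-550a-5p and miR-550a-3-5p, neither side was detected.

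The detected members were richer in G and C than those not detected. Of the 91 members with a sequence, the median share of G and C was 54.5%, against 69.5% for the 12 detected and 50% for the 79 not detected. For the 2157 other miRNAs with a sequence the medians were 59.1% for the 375 detected and 50% for the 1782 not detected. In the class with the lowest G and C (22.7 to 47.6%) 0 of 33 members were detected, against 9.88% of others, and in the middle one (47.8 to 59.1%) 1 of 28 (3.57%), against 15.4% of others. In the highest (60.9 to 85.7%) 11 of 30 members (36.7%) were detected, against 29.8% of others. The letters GGGG, searched on the RNA strand itself after the values were seen, stood in 6 of the 91 members (6.59%) and in 12.2% of the others. Of these 6, miR-1202, miR-1268a, miR-1268b and miR-1275 were detected and miR-1296-3p and miR-1303 were not, against 8 of the 85 members without the run (9.41%). Of the other miRNAs 37.3% of 263 with the run and 14.6% of 1894 without it were detected. The letters CCCC, searched in the same way, stood in 7 members, of which 1 was detected, against 11 of the 84 without them. Of the other miRNAs 34.9% with CCCC and 16.1% without were detected. Whether base composition of the RNA or of the probe lies behind these shares was not tested.

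**Figure D4:**
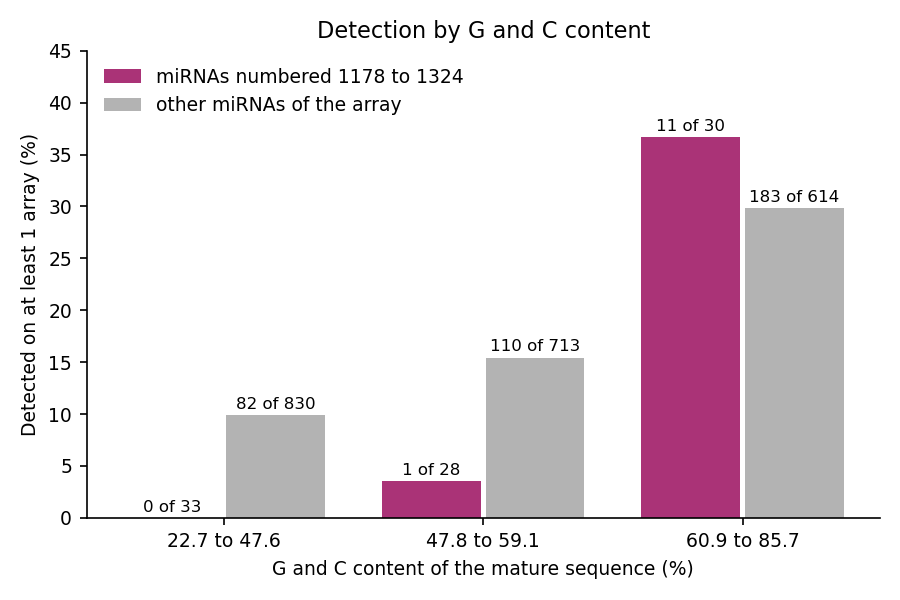
Share of miRNAs detected on at least 1 array by class of G and C content, for the members and for the other miRNAs with a sequence. None of 33 members in the lowest class was detected and 36.7% of 30 in the highest, against 9.88% and 29.8% of the others.

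**Figure D5:**
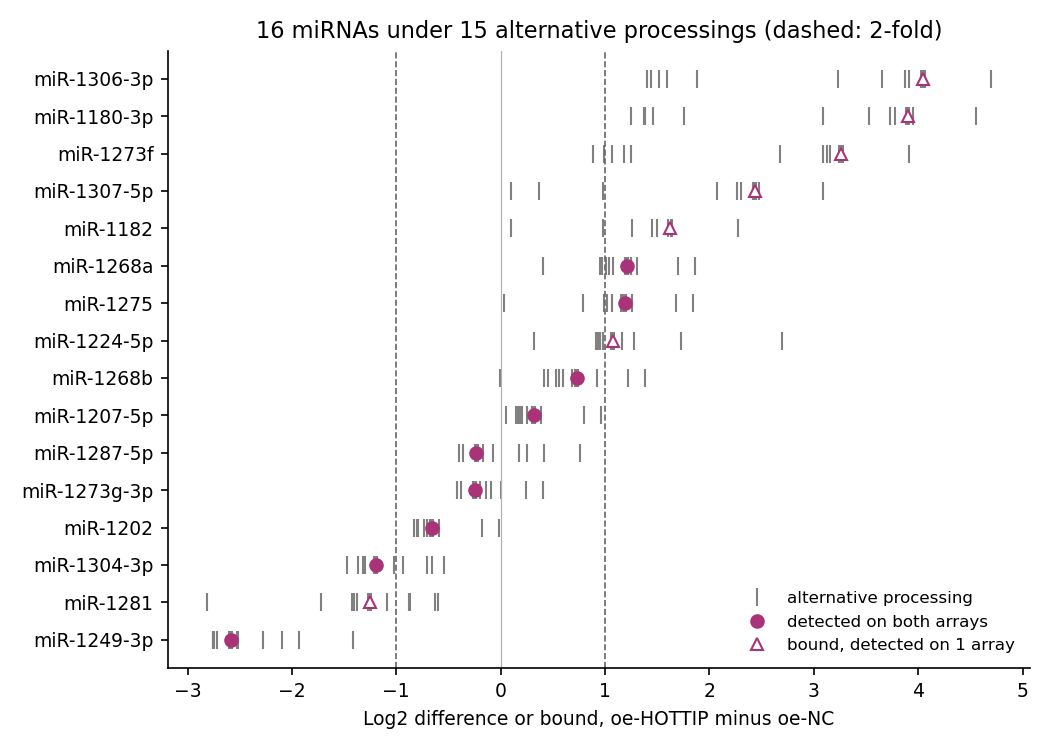
Value of each of the 16 detected members in each setting, as a log2 difference or, for members detected on 1 array, a log2 bound. Marks stand for the main setting and ticks for the 15 others, and miR-1249-3p stays below the 2-fold line throughout, between -2.76 and -1.41.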

How the data were processed

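The authors deposited, per the file headers, 1-colour Agilent scanner output with a background-subtracted intensity for each spot, and a table of normalized log2 values with 1 column per group. Per the submitters' processing notes Feature Extraction 10.10 was used, while the scanner output names 11.5.1.1. The methods name a 90th percentile normalization. The normalized table follows the opposite arrays and served as an alternative only.

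Flagged outliers and controls were removed, spots were averaged within probes and probes within miRNAs, and intensities were scaled to the 90th percentile of the 261 miRNAs both arrays detected. Differences are log2 of oe-HOTTIP over oe-NC. The named miRNAs are all members detected on at least 1 array and the members of lists of loci, families, arms and shared seeds. Although the rule for the members uses names only, the range of numbers and the lists were chosen with earlier results of these data known. The code was in Python 3.11.15 with pandas 2.3.3, and in R 4.3.3 with limma 3.58.1 for normexp. It was tested on simulated data with the same miRNAs detected on both arrays, so the bounds were not covered. Other scalings, background corrections, detection rules and the normalized table were tried as alternatives. With arrays there is no count of reads, and 1 array per group limits the precision.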

Additional observations from a re-analysis of the deposited data

How the results depend on the processing

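Of the 16 detected members, miR-1249-3p, miR-1180-3p and miR-1306-3p were at least 2-fold different in every setting that gave a value, other than the authors' table as named, whose columns follow the opposite arrays; under normexp with an offset of 50 the last 2 had no bound. The main counts were 8 higher and 3 lower. Normexp with an offset of 50 gave 0 and 1, and normexp without an offset 3 and 1. Detection in over 50% of spots gave 5 and 1. The brightest probe gave 5 higher, the table as named 3 higher and the table exchanged 4 higher, and no scaling gave 1 lower. The higher floor gave 6 higher. Counts not listed here ran from 6 to 9 higher and from 2 to 4 lower. The median log2 difference of -0.23 became 0.20 under quantile normalization, 0.42 without scaling, 0.25 under detection in over 50% of spots and 0.17 in the exchanged table. The median absolute log2 difference of 0.73 became 0.20 under normexp with the offset of 50. In the table as named the sign turned for miR-1180-3p (-1.76), miR-1224-5p (-1.28), miR-1249-3p (2.75), miR-1268a (-0.97), miR-1273f (-1.24), miR-1275 (-0.99), miR-1281 (1.73), miR-1304-3p (1.48) and miR-1306-3p (-1.88), and, among members under 2-fold, for miR-1202 (0.80), miR-1207-5p (-0.17), miR-1268b (-0.42) and miR-1273g-3p (0.14). The cause of the other changes was not tested. Over all miRNAs of the array, the count of higher miRNAs was 155 in the main setting, where 457 were detected on at least 1 array. It was 223 without scaling, 53 under normexp without an offset and 8 with the offset. By the brightest probe it was 95, by the higher floor 86 and under detection in over 50% of spots 106. In the table as named it was 104 and in the table exchanged 82. For lower miRNAs it was 115 in the main setting, 63 without scaling and 39 under detection in over 50% of spots. Normexp gave 26 lower with the offset and 84 without it. No paired analysis was possible because only 1 array was run per group. Members near the negative controls, such as miR-1182, miR-1281, miR-1304-3p and miR-1307-5p, are limited by signal over background.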

Other observations

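All 113 members are listed in the authors' table of normalized log2 values. In the column named oe-NC 15 of them stand above the table's floor and in the column named oe-HOTTIP 10. The calls of each column match those of the opposite array for 113 of 113 members and those of its own array for 106. miR-1249-3p stands at 2.29 in the column named oe-NC and at 5.04 in that named oe-HOTTIP, and miR-1306-3p stands at 2.46 in the first and at the floor in the second. Which set of labels is right was not tested.

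On the array the seed of miR-1202 is shared with miR-3972, at intensities of 0.30 on the oe-NC array and 10.6 on the oe-HOTTIP array, where it was detected. Among the 4 muscle and liver markers, miR-122-5p of liver was detected on both arrays at 8.99 and 14.8, and the muscle markers summed to 7.74 and 14.6, with a different one detected on each array.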
